A study of Mus musculus with 2 samples.

Results

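The interleukin-17 and interleukin-23 axis was followed through 6 genes, Il17a, Il17f, Il23a, Il23r, Il17ra and Il17rc, which were taken by their symbols from the 32285 genes of the count tables. The tables held single-cell RNA sequencing of 2 mouse pancreatic tumours, 1 grown in the pancreas from injected KPC-shV cells and 1 from KPC-shZEB1 cells. KPC is a mouse pancreatic cancer line, shV is the control vector, and shZEB1 is a hairpin against ZEB1, a transcription factor of epithelial-mesenchymal transition. The study's text places the tumours in immunocompetent mice treated with gemcitabine, which the sample labels do not mention, and the study used C57BL/6J, BABL/c and NSG mice of both sexes, aged 4 to 6 weeks, without tying a strain or a sex to these 2 hosts in the sources used here. Each group was 1 tumour from 1 mouse, so nothing was tested between the groups, and every interval covers counting error only. The question was which cells of these tumours carried the ligands, the receptors and the genes known to respond to IL-17, and how their levels differed between the libraries.

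IL-23 is made by myeloid cells as a dimer of the Il23a product and a subunit shared with IL-12, which Il12b encodes. It acts on lymphocytes that carry the receptor chains Il23r and Il12rb1, sustains their type 17 programme, and so maintains release of IL-17A and IL-17F. Those cytokines bind a receptor of Il17ra and Il17rc chains on epithelial and stromal cells and induce chemokines and growth factors that draw neutrophils, and in mouse pancreatic tumours gamma-delta T cells are a known source of them.

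The kept data were 11398 cells with 101201508 UMIs (unique molecular identifiers, each 1 counted RNA molecule) for KPC-shV by label, and 12104 cells with 118943000 UMIs for KPC-shZEB1. Levels are given as CPM, counts per 1000000 UMIs of all cells of a class, with 95% exact Poisson intervals. Pairs of values stand in the order KPC-shV, KPC-shZEB1, and each ratio divides the second value by the first and carries its 95% counting interval. Zeb1 itself stood at 130.1 CPM (125 to 135) and 171.0 CPM (166 to 176) in tumour-like cells, a ratio of 1.31 (1.25 to 1.38). The make-up of that class differed, with 10 and 231 cells in its cluster led by Ralyl. The knockdown label was not borne out by the RNA of that class, and the libraries are named here by their labels alone. The study measured knockdown efficiency in KPC cells and stained tumours for Zeb1, results that were not examined here. Granulocyte-like cells made up 60.2% and 35.6% of kept cells, and both libraries shared 36 cell barcodes.

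Il17a (chromosome 1, 20730905 to 20734496, plus strand, GRCm38) and Il17f (chromosome 1, 20777146 to 20790617, minus strand) lie beside each other. Il23r (chromosome 6, 67422932 to 67491855, minus strand) lies beside the IL-12 receptor gene Il12rb2, and Il17rc (chromosome 6, 113471427 to 113483140, plus strand) beside Il17re. Il23a lies on chromosome 10 (128296139 to 128298752, minus strand) and Il17ra on chromosome 6 (120463247 to 120487559, plus strand). The 250 bases before the start of Il17a, Il17f and Il23r are shown because their levels were highest in the same small T cell sub-clusters, described below. Most Il17f UMIs nevertheless lay outside those sub-clusters. They come from RefSeq (GRCm38.p6, 5′ to 3′ on the gene's strand), and capitals mark AGGTCA or its reverse complement TGACCT, a half-site of nuclear receptors.
Il17a, chr1:20730655-20730904: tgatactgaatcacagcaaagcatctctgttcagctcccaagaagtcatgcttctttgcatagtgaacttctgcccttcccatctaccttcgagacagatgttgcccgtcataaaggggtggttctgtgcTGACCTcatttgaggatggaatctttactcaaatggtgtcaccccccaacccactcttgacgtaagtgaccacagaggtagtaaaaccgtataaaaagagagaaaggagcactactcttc
Il17f, chr1:20784271-20784520: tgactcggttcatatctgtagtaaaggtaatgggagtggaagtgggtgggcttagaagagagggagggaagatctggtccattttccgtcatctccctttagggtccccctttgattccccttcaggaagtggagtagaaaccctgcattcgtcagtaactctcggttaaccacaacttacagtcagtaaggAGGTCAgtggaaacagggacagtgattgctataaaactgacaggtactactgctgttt
Il23r, chr6:67491856-67492105: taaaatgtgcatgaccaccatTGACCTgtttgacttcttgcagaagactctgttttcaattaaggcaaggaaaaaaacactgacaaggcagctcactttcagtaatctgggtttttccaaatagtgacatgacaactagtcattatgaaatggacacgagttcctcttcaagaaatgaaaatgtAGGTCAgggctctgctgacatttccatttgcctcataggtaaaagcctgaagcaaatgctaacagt
The letters stood 115 bases before the start of Il17a on the opposite strand, 53 bases before that of Il17f on the same strand, and 224 and 61 bases before that of Il23r on the opposite and the same strand. On either strand they occurred in 4607 of 32851 windows of this length, or 14.02%, and not in that of Il17rc. The Il17f window lies inside the longer gene model of the annotation above. A match of letters describes the window and is not evidence of binding.

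Il17a, the principal type 17 cytokine, was found almost wholly in a few T cells, and its summed level was lower in the library labelled KPC-shZEB1. T-like cells (408 and 1277) held 308 and 172 of the 343 and 201 Il17a UMIs of the kept cells, or 89.8% and 85.6%. Their level was 113 CPM (101 to 126) and 22.1 CPM (18.9 to 25.7), a ratio of 0.196 (0.162 to 0.237). T cells as a whole were more numerous in the library labelled KPC-shZEB1, and over all kept cells the level was 3.39 and 1.69 CPM, a ratio of 0.499 (0.417 to 0.595). An Il17a UMI was found in 14 and 30 T-like cells, 3.43% and 2.35% of the class. B-like cells, which should lack the gene, had 0 of 289 (a count that could hide a share of 1.04%) and 2 of 1226 (0.163%), at median depths of 3732 and 3418 UMIs against 5357 and 4904 in T-like cells. With each cell thinned to 1000 UMIs, the shares were 2.70% and 1.02% of T-like cells and 0% and 0.0816% of B-like cells. Outside T and NK cells no class had more than 1 Il17a UMI in any cell.

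Within the T cells, Il17a lay in 2 sub-clusters. One, of 8 and 15 cells, was named gamma-delta T-like from its markers: of these 23 cells, 21 had the delta chain Trdc, 21 the scavenger receptor gene Cd163l1 and 19 the kinase gene Blk, while 0 had Cd4 or Cd8a. The other, of 26 and 42 cells, was led by 5830411N06Rik, a gene of the same scavenger receptor family. It had too few gamma-delta markers for a name, since Trdc was present in 10 and the alpha chain Trac in 36 of its 68 cells. None of the 6 genes was used to form the clusters, but the 2 sub-clusters were set together after their Il17a values were seen. The pair was 8.33% (5.84% to 11.5%, exact binomial interval) and 4.46% (3.40% to 5.75%) of T-like cells.

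In the gamma-delta T-like cells, the Il17a counts of the cells with a UMI were 169, 27, 9, 6, 4 and 1 in the library labelled KPC-shV and 43, 21, 13, 10, 3, 2, 1, 1 and 1 in that labelled KPC-shZEB1. In the 5830411N06Rik sub-cluster they were 29, 18, 15, 12, 9, 5, 3 and 1 against 17, 14, 12, 3, 2, 2, 2, 1, 1 and 1. The ranges overlapped widely, and 1 cell of the library labelled KPC-shV held 54.9% of that library's counts in the pair. The level was 5226 and 1138 CPM in gamma-delta T-like cells, a ratio of 0.218 (0.169 to 0.278), and 645 and 234 CPM in the 5830411N06Rik sub-cluster, a ratio of 0.363 (0.255 to 0.513). For the pair the counts were 308 and 150 UMIs and the level 1674 CPM (1492 to 1871) and 471 CPM (399 to 553), a ratio of 0.282 (0.230 to 0.343). Leaving out the highest KPC-shV cell gave a ratio of 0.602 (0.474 to 0.763), and leaving out the highest cell of each library gave 0.435 (0.335 to 0.564). The share of cells with a UMI differed less than the level did. It was 14 of 34 cells (41.2%, 24.7% to 59.3%) and 19 of 57 cells (33.3%, 21.4% to 47.1%), and these intervals overlapped. The median count of the positive cells was 9 and 2 UMIs.

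**Figure D1:**
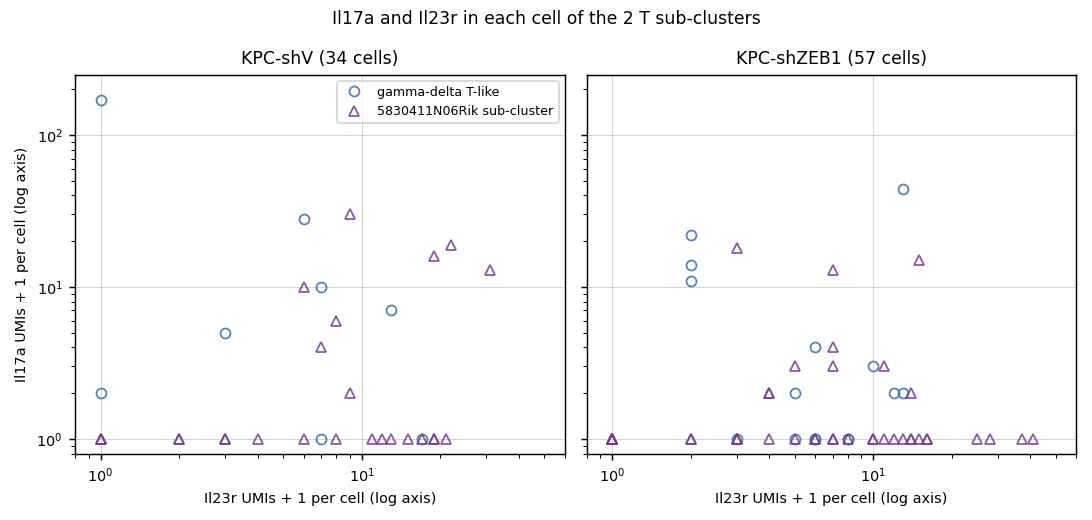
Il17a UMIs plus 1 (vertical log axis) against Il23r UMIs plus 1 (horizontal log axis) in each cell of the gamma-delta T-like sub-cluster (circles) and the 5830411N06Rik sub-cluster (triangles), in 34 cells of the library labelled KPC-shV and 57 of that labelled KPC-shZEB1. Cells without Il17a lie along the bottom over the whole range of Il23r, and the highest cell, with 169 Il17a UMIs, had no Il23r UMI.

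A small amount of Il17a lay in other T cells of the library labelled KPC-shZEB1, 22 UMIs in 11 cells, against 0 UMIs in that labelled KPC-shV. CD4 T-like cells had 0 UMIs in 93 cells, which allows up to 5.84 CPM, and 20 UMIs in 9 of 395 cells, or 10.6 CPM. In 1 of these 9 cells, 5 Il17a, 13 Il17f and 13 Il23r UMIs stood beside 1 Cd4 UMI. CD8 T-like cells (130 and 425) had 0 UMIs in both libraries, which allows up to 2.47 and 0.844 CPM.

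Il17f, the second type 17 cytokine, was too sparse to compare. T-like cells had 8 UMIs in 4 cells and 24 UMIs in 7 cells, of which 13 were in the CD4 T-like cell above. These were 27.6% and 57.1% of the 29 and 42 Il17f UMIs of the kept cells. Tumour-like cells held 6 and 7, and the unnamed cluster led by Prg4 and Ecrg4 held 7 and 2. The level in T-like cells was 2.93 and 3.08 CPM, a ratio of 1.05 (0.457 to 2.71), an interval that spans a wide difference either way. In the pair of sub-clusters it was 8 and 10 UMIs, or 43.5 and 31.4 CPM, and 6 of the 45 T or NK cells with an Il17a UMI also had one of Il17f.

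Il23r, the receptor chain particular to IL-23, was shared by more cells of these sub-clusters than Il17a was, and there its level was near equal between the libraries. The pair held 290 and 445 Il23r UMIs in 29 of 34 and 51 of 57 cells. The level was 1576 and 1398 CPM, a ratio of 0.887 (0.763 to 1.03) whose interval includes 1. In the 5830411N06Rik sub-cluster it was 1703 and 1528 CPM in 23 of 26 and 36 of 42 cells, and in gamma-delta T-like cells 1137 and 1030 CPM in 6 of 8 and 15 of 15 cells. The order of these sub-clusters was thus the reverse of that for Il17a in both libraries. Of the cells in the pair without an Il17a UMI (20 and 38), 17 and 32 had Il23r.

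Summed over all T-like cells, Il23r stood at 127 CPM (114 to 141) and 65.5 CPM (59.98 to 71.5), a ratio of 0.517 (0.450 to 0.594). T-like cells of the pair were the smaller share of the class in the library labelled KPC-shZEB1, as given above, and over all kept cells the direction was the other way, at 4.34 and 5.66 CPM, a ratio of 1.30 (1.16 to 1.47). A further 47 UMIs of the library labelled KPC-shV lay in 1 CD8 T-like cell. A UMI was found in 8.58% and 6.03% of T-like cells, against 0% and 0.489% of B-like cells, and in 5.39% and 2.90% against 0% and 0.163% after thinning. Outside the T cells, Il23r was found in dendritic-like cells of the cluster led by Strip2 and Bcl2l14, with 26 UMIs in 13 of 37 cells and 48 UMIs in 16 of 103 cells. Its level there was 63.2 and 36.8 CPM, a ratio of 0.582 (0.354 to 0.978). In fibroblast-like cells there were 7 and 24 UMIs, of which 17 were in 1 cell.

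The cells with Il17a carried other marks of the type 17 programme, which were not shown to be particular to them. Il23r was also found in most cells of the pair without Il17a, as given above. Il1r1 and Zbtb16 were among the leading genes of the whole 5830411N06Rik sub-cluster. Of the 14 and 31 T or NK cells with an Il17a UMI, 12 and 22 had Il23r, 14 and 23 the IL-1 receptor gene Il1r1, 14 and 18 the innate T cell factor Zbtb16, and 11 and 23 the factor Maf. None and 7 had Cd4, and none and 3 had Cd8a.

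The 6 genes were also set beside all genes of the T-like cells. Of the 6 genes, 5 had at least 30 UMIs in T-like cells, and 0 were higher and 3 (Il17a, Il23a and Il23r) lower by a ratio past 1.5, where 9.16% of the 11737 genes with as many UMIs were higher and 3.45% lower. Their median log2 ratio was -0.58, against 0.05 for all these genes. For Il23a, at 24.9 and 16.3 CPM, 22 of 68 UMIs of the library labelled KPC-shV lay in 2 cells of the 5830411N06Rik sub-cluster, and in T-like cells outside the pair the ratio was 0.947 (0.669 to 1.36). Of the 9 type 17 lineage genes 0 were higher past 1.5-fold, and the median log2 ratio of that list was -0.20 against 0.05 for all genes. Rora, a nuclear receptor gene, stood at 944 and 797 CPM, Il1r1 at 113 and 92.8 CPM, Stat3, which carries the IL-23 signal, at 1009 and 1008 CPM, and the chemokine receptor gene Ccr6 at 16.1 and 19.2 CPM. Il12rb1, the partner chain of Il23r, stood at 5.497 and 6.30 CPM, and none of the 4 measured other receptor chains lay past 1.5-fold in T-like cells.

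**Figure D2:**
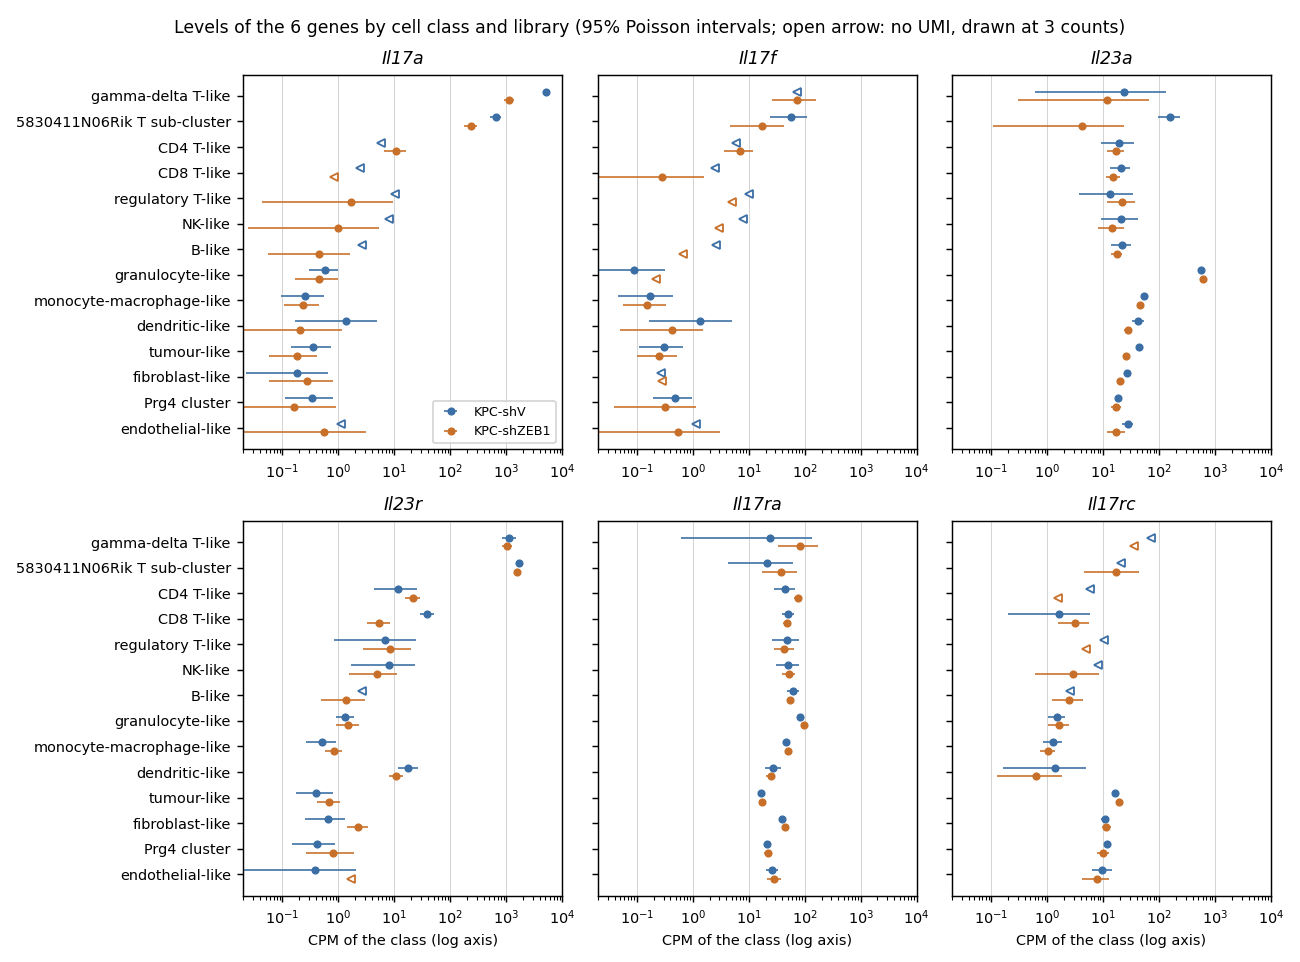
Level of each of the 6 genes (CPM of the class, log axis, a panel per gene) in 14 classes, in the library labelled KPC-shV (blue) and that labelled KPC-shZEB1 (orange). Lines are 95% Poisson intervals, some of which run past the left edge, and open arrows mark 0 UMIs at the level that 3 counts would give. Il17a, Il17f and Il23r peak in the first rows, Il23a in granulocyte-like cells, and Il17rc in tumour-like cells among the classes with narrow intervals, while Il17ra varies least across rows.

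Il23a, the subunit particular to IL-23, was a gene of granulocytes in these tumours. Granulocyte-like cells (6864 and 4309) held 12859 and 8262 of the 15870 and 11913 Il23a UMIs, or 81.0% and 69.4%. Their level was 563 CPM (553 to 573) and 618 CPM (605 to 632), a ratio of 1.10 (1.07 to 1.13). All genes of the class had a median log2 ratio of 0.24, above that of Il23a, so relative to the class Il23a was not higher in the library labelled KPC-shZEB1. Over all kept cells Il23a was lower there, at 157 and 100.2 CPM, a ratio of 0.639 (0.624 to 0.654), where granulocyte-like cells were also the smaller share. An Il23a UMI was found in 34.2% and 35.5% of granulocyte-like cells, at median depths of 3147 and 2911 UMIs, against 8.65% and 6.199% of B-like cells at the slightly greater depths above. With thinning to 1000 UMIs the shares were 21.9% and 23.9% against 1.04% and 1.39%, so the granulocyte signal stood far above that of free RNA.

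Among granulocyte-like clusters, Il23a was highest in the one led by Abca13 and Siglecf, a lectin gene of tumour-adapted neutrophils, at 921 and 825 CPM, a ratio of 0.896 (0.858 to 0.935). The cluster led by Rdh12 and Cxcr2, the receptor for neutrophil chemokines, stood at 478 and 480 CPM, a ratio of 1.00 (0.950 to 1.06). The interferon-response cluster led by Ifit1 and Rsad2 was at 559 and 446 CPM (ratio 0.799, 0.710 to 0.896). The clusters led by Gm28905 and by Ccdc126 were at 537 and 480 CPM and at 452 and 416 CPM. Thus Il23a was not higher within any of the 5 clusters beyond counting error in the library labelled KPC-shZEB1, and the class ratio above 1 went with their mix. The Siglecf cluster was 17.3% and 41.1% of granulocyte-like cells, and the Ccdc126 cluster 33.4% and 13.8%. With the clusters weighted as in the library labelled KPC-shV the levels were 563 and 519 CPM, a ratio of 0.921, and without the Siglecf cluster the ratio was 0.953 (0.917 to 0.991). In the Siglecf cluster 43.5% and 40.9% of cells had Il23a, the median positive cell had 4 UMIs in both libraries, and the highest had 56 and 46.

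**Figure D3:**
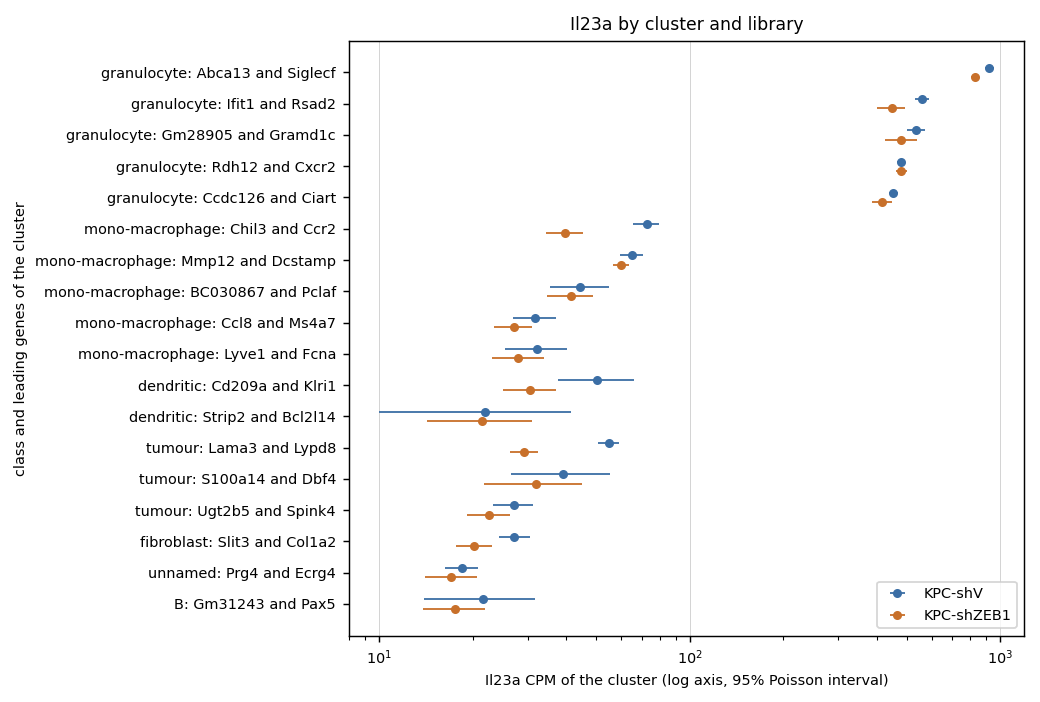
Il23a level (CPM of the cluster, log axis, 95% Poisson interval) in 18 clusters named by class and leading genes, in the library labelled KPC-shV (blue) and that labelled KPC-shZEB1 (orange). The granulocyte-like clusters lie between 416 and 921 CPM and the others below 100 CPM, and the largest gaps between libraries are in the Chil3 and the Lama3 clusters.

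Monocyte-macrophage-like cells carried far less Il23a per UMI, at 54.8 and 45.7 CPM, a ratio of 0.836 (0.777 to 0.898). The cluster of monocytes led by Chil3 and Ccr2 was at 72.5 and 39.6 CPM, a ratio of 0.546 (0.462 to 0.644). The clusters led by Mmp12 and by Ccl8 were at 64.97 and 59.98 CPM and at 31.6 and 27.0 CPM. The class ratio turned to 1.00 with the highest 8% of doublet scores removed and to 1.005 with cells assigned by marker UMIs, so its direction depended on which cells were kept. In tumour-like cells Il23a was at 43.9 and 25.7 CPM, a ratio of 0.585 (0.529 to 0.647). The cluster led by Lama3 and Lypd8 was at 54.8 and 29.3 CPM, a ratio of 0.53 (0.47 to 0.61). That led by Ugt2b5 and Spink4 was at 27.0 and 22.5 CPM (ratio 0.83, 0.67 to 1.04). That led by S100a14 and Dbf4 was at 38.9 and 31.8 CPM (ratio 0.82, 0.48 to 1.39), and both of these intervals include 1. The Ralyl cluster, of 10 and 231 cells, stood at 22.4 CPM in the library labelled KPC-shZEB1, so the mix of clusters also differed. Fibroblast-like cells were at 27.2 and 20.2 CPM. B-like cells were at 21.5 and 17.5 CPM but were shallower, at medians of 3732 and 3418 UMIs against 29139 and 28011 in fibroblast-like cells. At such unlike depths their CPM does not give the level of free RNA in the deeper cells. With each cell thinned to 1000 UMIs, 3.05% and 1.85% of fibroblast-like cells had Il23a, against 1.04% and 1.39% of B-like cells. The part of free RNA in the differences between libraries was not tested. In dendritic-like cells the values were 42.3 CPM (62 UMIs) and 28.1 CPM (134 UMIs), a ratio of 0.664 (0.488 to 0.912). Of the 62 UMIs, 29 lay in 1 cell, and without it the ratio was 1.23 (0.832 to 1.85). It was 0.935 without the 5 cells with the most UMIs and 2.47 with each library clustered alone, so no direction is given.

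The calls past 1.5-fold for the 6 genes were few in these classes. In granulocyte-like cells 0 of 4 measured were called, where 24.1% of 13785 genes were higher and 3.34% lower. In monocyte-macrophage-like cells 1 of 4 was higher (Il23r, 12 and 32 UMIs, with an interval that spans 1) where 10.2% were higher and 2.25% lower. In dendritic-like cells 2 of 3 were lower (Il23r, and Il23a with 29 of its 62 UMIs in 1 cell as above), against 11.7% of genes higher and 5.99% lower. In tumour-like cells 1 of 3 was lower (Il23a), against 14.4% higher and 4.41% lower. In fibroblast-like cells 1 of 4 was higher (Il23r, mostly from 1 cell), against 7.01% higher and 6.4% lower. The medians over the measured genes were 0.12, -0.02, -0.57, 0.06 and 0.14 in that order, against 0.24, 0.04, 0.03, 0.05 and -0.03 for all genes.

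Il12b, the other subunit of IL-23, lay mostly outside the granulocytes that held most Il23a. Monocyte-macrophage-like cells held 70.8% and 25.7% of the 636 and 2973 Il12b UMIs, and dendritic-like cells 24.1% and 62.6%. In dendritic-like cells Il12b stood at 104 CPM (153 UMIs) and 390 CPM (1862 UMIs), a ratio of 3.74 (3.17 to 4.44). The highest cell of each library held 62 and 241 of these UMIs, and without both the ratio was 5.45 (4.41 to 6.81). It was the higher value in both dendritic-like clusters, at 95.9 and 315 CPM in that led by Cd209a and 126 and 591 CPM in that led by Strip2 and Bcl2l14. In monocyte-macrophage-like cells the class level was 19.1 and 19.7 CPM, but 1 cell of the library labelled KPC-shV held 162 of its 450 UMIs there. Without that cell the level was 12.2 and 19.7 CPM, a ratio of 1.61 (1.40 to 1.85), and without the highest cell of each library the ratio was 1.49 (1.30 to 1.72). The cell lay in the Ccl8 cluster, which stood at 67.5 and 31.4 CPM with it and at 34.8 and 31.4 CPM without it. The Mmp12 cluster was at 11.7 and 26.1 CPM. In the monocyte-macrophage-like class 45 and 182 cells had Il12b, and 25 and 51 of them had more than 1 UMI of it. The part of free RNA in the class difference was not tested. Granulocyte-like cells had 0.526 and 4.34 CPM, the second value close to the 4.26 CPM of B-like cells in the same library and so read as background. Il12a, which pairs with the Il12b product as IL-12, had 10 and 58 UMIs in monocyte-macrophage-like cells.

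Cells with both subunits were rare. A UMI of each was found in 4 of 6864 and 15 of 4309 granulocyte-like cells, 17 of 1615 and 68 of 2508 monocyte-macrophage-like cells, and 4 of 100 and 21 of 311 dendritic-like cells. Among these 3 classes the share was 4.0% and 6.75% in dendritic-like cells. It was 1.05% and 2.71% in monocyte-macrophage-like cells, which were sequenced to a like depth (medians of 13296 and 14549 UMIs, against 13326 and 14368). Granulocyte-like cells, with 0.0583% and 0.348%, were shallower, as given above. Other classes also held such cells, at 2 of 123 and 7 of 82 (8.54%) in endothelial-like and 0 of 289 and 2 of 1226 (0.163%) in B-like cells. The shares were 0.645% and 2.88% in tumour-like and 0.554% and 2.90% in fibroblast-like cells. In the library labelled KPC-shZEB1, the monocyte-macrophage-like share was thus no higher than in endothelial-like, tumour-like or fibroblast-like cells. There, 0 of 11 endothelial-like and 0 of 29 fibroblast-like cells with Il12b had more than 1 Il12b UMI. The counts were 4 of 72 in tumour-like, 1 of 18 in B-like, 51 of 182 in monocyte-macrophage-like and 69 of 89 in dendritic-like cells. The part of free RNA in these shares was not tested. Of the monocyte-macrophage-like cells with Il12b, 37.8% and 37.4% also had Il23a. Among the cytokines that favour type 17 cells, Il1b, another granulocyte gene, stood at 16829 and 17101 CPM in granulocyte-like cells. Of the 4 such genes 0 were called in granulocyte-like or monocyte-macrophage-like cells and 1, Il6, was higher in dendritic-like cells, at 25.3 and 43.0 CPM. Of all genes, 24.1% were higher and 3.34% lower in granulocyte-like cells. The shares were 10.2% and 2.25% in monocyte-macrophage-like cells and 11.7% and 5.99% in dendritic-like cells. Il6 went opposite ways in the dendritic-like clusters, at 8.54 and 38.7 CPM in the Cd209a cluster and 68.0 and 54.4 CPM in the Strip2 cluster.

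**Figure D4:**
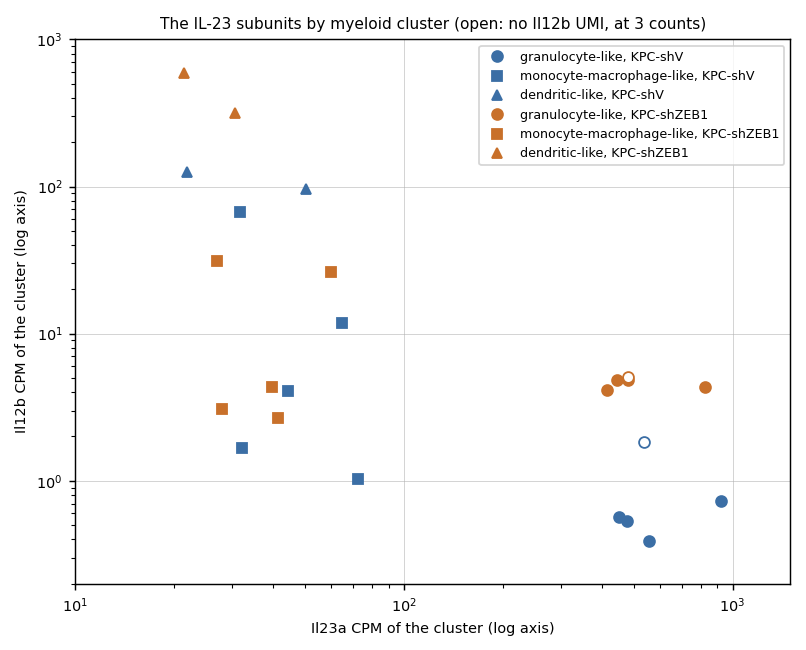
Il12b level (vertical, CPM, log axis) against Il23a level (horizontal, CPM, log axis) in each granulocyte-like (circles), monocyte-macrophage-like (squares) and dendritic-like (triangles) cluster of the library labelled KPC-shV (blue) and that labelled KPC-shZEB1 (orange), with open symbols for 0 Il12b UMIs drawn at 3 counts. Granulocyte-like clusters lie at high Il23a and low Il12b, and dendritic-like clusters, at 95.9 to 591 Il12b CPM, lie at the opposite corner.

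Il17ra, the receptor chain used by several IL-17 cytokines, was present in every large class and differed little between libraries. Granulocyte-like cells stood at 82.8 CPM (79.1 to 86.6) and 95.6 CPM (90.4 to 101), a ratio of 1.15 (1.07 to 1.24), which lies close to the class median log2 ratio of 0.24. A UMI was found in 1465 and 1029 cells, and after thinning in 7.66% and 9.35% of granulocyte-like cells against 5.88% and 5.55% of B-like cells. The Rdh12 and Cxcr2 cluster was the highest, at 124 and 132 CPM, above the Siglecf cluster at 81.4 and 82.9 CPM and the Ccdc126 cluster at 50.4 and 59.2 CPM. The order of granulocyte-like clusters therefore differed from that for Il23a. Monocyte-macrophage-like cells were at 46.4 and 50.9 CPM (ratio 1.10, 1.02 to 1.18), with the widest gap in the Ccl8 cluster, at 61.6 and 81.2 CPM. Tumour-like cells were at 16.6 and 17.4 CPM, a ratio of 1.05 (0.910 to 1.21) whose interval includes 1. Fibroblast-like cells were at 39.1 and 45.4 CPM (ratio 1.16, 1.02 to 1.33) and B-like cells at 62.9 and 54.4 CPM. In CD4 T-like cells the values were 44.7 CPM (23 UMIs) and 75.3 CPM (142 UMIs), a ratio of 1.68 (1.08 to 2.74).

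Il17rc, the chain that completes the receptor for IL-17A and IL-17F, was a gene of tumour and stromal cells. Tumour-like cells (930 and 1182) held 326 and 542 of 722 and 846 UMIs, or 45.2% and 64.1%. Their level was 16.4 CPM (14.6 to 18.3) and 19.3 CPM (17.7 to 21), a ratio of 1.18 (1.03 to 1.36). It was 12.6 and 16.1 CPM in the Lama3 cluster and 23.2 and 26.7 CPM in the Ugt2b5 cluster, higher in the library labelled KPC-shZEB1 in both. Fibroblast-like cells were at 10.9 and 11.4 CPM (119 and 123 UMIs), a ratio of 1.05 (0.809 to 1.36). The unnamed cluster led by Prg4 and Ecrg4 was at 11.9 and 10.0 CPM, and endothelial-like cells were at 9.70 and 7.73 CPM. These neighbours overlapped in their intervals. Granulocyte-like cells, at 1.49 and 1.65 CPM, lay no higher than B-like cells, with 0 UMIs (which allows 2.59 CPM) and 2.46 CPM, so Il17rc was not detectable there above background. CD4 T-like cells had 0 UMIs in both libraries, which allows up to 5.84 and 1.59 CPM. After thinning, an Il17rc UMI was found in 1.40% and 1.78% of tumour-like and 0% and 0.408% of B-like cells.

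Both receptor chains were found in the same cell mostly in tumour and stromal classes. They stood together in 58 of 361 and 77 of 379 fibroblast-like cells (16.1% and 20.3%), 89 of 930 and 150 of 1182 tumour-like cells (9.57% and 12.7%) and 61 of 506 and 20 of 208 cells of the Prg4 cluster. In granulocyte-like cells it was 7 of 6864 and 9 of 4309. Those classes differ in depth, at medians of 29139 and 28011 UMIs in fibroblast-like, 20058 and 23509 in tumour-like, and 3147 and 2911 in granulocyte-like cells. Among the other chains in tumour-like cells, both IL-12 receptor genes were higher, Il12rb1 at 1.11 and 3.71 CPM, with 56 of its 104 UMIs in the library labelled KPC-shZEB1 lying in the cluster led by Ralyl, and Il12rb2 at 4.92 and 9.87 CPM. Of 9 genes of receptor signalling, which include the adaptor Traf3ip2 and the brake Tnfaip3, 0 were called in tumour-like, fibroblast-like or T-like cells. Of all genes, 14.4% were higher and 4.41% lower in tumour-like cells. The shares were 7.01% and 6.4% in fibroblast-like cells and 9.16% and 3.45% in T-like cells. In granulocyte-like cells 1 of the 9 was higher, Traf3ip2, at 2.63 and 3.97 CPM (ratio 1.51, 1.02 to 2.22). There 24.1% of all genes were higher, and the median log2 ratio of the 9 genes was 0.17 against 0.24 for all genes.

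Among genes known to respond to IL-17, most of which respond to other signals too, more were lower than higher in tumour-like cells and more were higher than lower in fibroblast-like cells. All 14 were measured in each class. In tumour-like cells 1 was higher and 3 lower past 1.5-fold, where 14.4% of all genes were higher and 4.41% lower. The median log2 ratio of the list was -0.20 against 0.05 for all genes. Csf2, the growth factor GM-CSF, was at 60.2 and 27.0 CPM (ratio 0.448, 0.409 to 0.491) and was lower in the Lama3 cluster (84.8 and 45.3 CPM) as in the Ugt2b5 cluster (26.9 and 16.1 CPM). The cluster led by S100a14 and Dbf4 was at 21.4 and 27.9 CPM, a ratio of 1.3 (0.690 to 2.54). The Ralyl cluster, of 10 and 231 cells, stood at 7.9 CPM in the library labelled KPC-shZEB1. Ccl20, the ligand of Ccr6, was at 26.9 and 11.3 CPM, a ratio of 0.420. It was lower in the Lama3 cluster (23.1 and 8.15 CPM) and the Ugt2b5 cluster (35.3 and 27.4 CPM). In the S100a14 cluster it was higher, with 2 and 13 UMIs. The Ralyl cluster stood at 1.91 CPM of Ccl20 in the library labelled KPC-shZEB1. Cxcl5, a neutrophil chemokine, was at 248 and 155 CPM, a ratio of 0.626, with 279 and 163 CPM in the Lama3 cluster but 221 and 231 CPM in the Ugt2b5 cluster. In the S100a14 cluster Cxcl5 went the other way, at 57.8 and 106.5 CPM, a ratio of 1.84 (1.29 to 2.66). The matrix protease gene Mmp3 was the higher one, at 6.43 and 10.2 CPM. B-like cells, which were shallower, had 4.31 and 8.74 CPM. Of the 287 Mmp3 UMIs in the library labelled KPC-shZEB1, 142 were in the Ralyl cluster.

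In fibroblast-like cells 4 were higher and 1 lower, where 7.01% of all genes were higher and 6.4% lower. The median log2 ratio of the list was 0.36 against -0.03 for all genes. Csf3, the granulocyte growth factor G-CSF, was at 24.8 and 68.6 CPM (ratio 2.77, 2.40 to 3.19), against 2.59 and 6.50 CPM in B-like cells. Lcn2, which encodes a protein that binds bacterial siderophores, was at 84.1 and 254 CPM (3.02, 2.80 to 3.26), against 40.5 and 46.4 CPM in B-like cells. Cxcl5 was at 67.7 and 180 CPM (2.66, 2.44 to 2.90), the other way from tumour-like cells. Ccl20 had 4 and 38 UMIs, of which 31 were in 1 cell, and Csf2, the lower one, 45 and 29 UMIs with an interval that spans 1 (0.396 to 1.07). The chemokine genes Cxcl1 and Cxcl2 were at 1293 and 1495 CPM and at 1705 and 1212 CPM, inside 1.5-fold. In granulocyte-like cells 2 were higher, Csf3 at 10.8 and 20.6 CPM and Mmp3 at 4.73 and 8.31 CPM, the latter no higher than in B-like cells, where 24.1% of all genes were higher and 3.34% lower. The median log2 ratio of the list there was 0.01 against 0.24 for all genes.

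**Figure D5:**
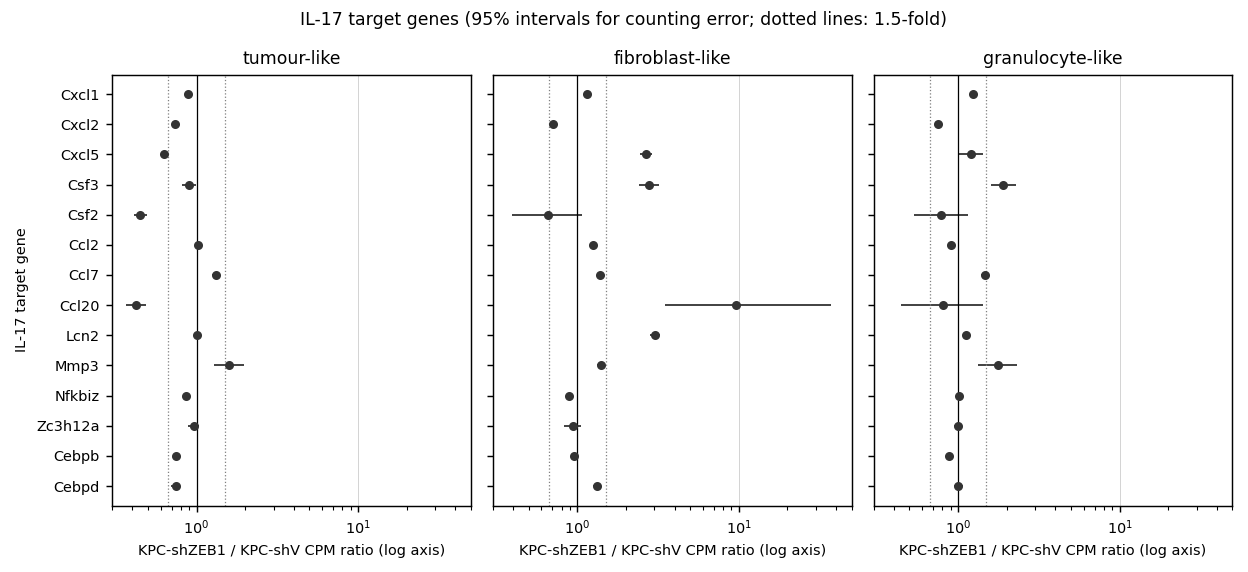
Ratio of CPM, library labelled KPC-shZEB1 over that labelled KPC-shV (log axis), of 14 IL-17 target genes in tumour-like, fibroblast-like and granulocyte-like cells, with 95% intervals for counting error, a solid line at 1 and dotted lines at 1.5-fold either way. Csf2, Ccl20 and Cxcl5 lie to the left in tumour-like cells, and Csf3, Cxcl5, Lcn2 and Ccl20 to the right in fibroblast-like cells.

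The genes whose levels ran most like each of the 6 were sought over 29 points (16 classes in either library, each with at least 20 cells), which share libraries and differ in depth. Il17a ran most like Il17f (Pearson r = 0.968), Cdh10 (0.921), 5830411N06Rik (0.917) and Prr29 (0.906), and Il17f like Il17a, 5830411N06Rik (0.886), Cdh10 (0.874) and Gm29675 (0.865). For Il23r the closest were C030034L19Rik (0.876), 5830411N06Rik (0.875), Il17a (0.854), Ppp1r14c (0.852) and Scrt1 (0.851). Both cytokine genes and Il23r thus followed the 5830411N06Rik sub-cluster, since the gamma-delta T-like points had too few cells to enter. Il23a ran with the myeloid genes Hcar2 (0.905), Card19 (0.904), Clec4e (0.890), Acod1 (0.882) and Gm38575 (0.872). Il17rc ran with Foxc1 (0.883), Ptprn (0.858), Samd14 (0.837), Grb14 (0.836) and Tnfrsf12a (0.835). Il17ra had the weakest companions, Slfn8 (0.739), Il16 (0.733), Ypel3 (0.731), Ifi208 (0.717) and Slc2a3 (0.708).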

How the data were processed

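Freshly dissociated tumour cells were loaded on a 10x Genomics droplet system that reads the 3′ end of transcripts. Per the labels, the authors made the deposited counts (UMIs per gene and barcode) with Cell Ranger 7.0.1 on mm10; whether intronic reads were counted is not given in the sources used here. The tables held 12594 and 13271 barcodes with 130941086 and 143461224 UMIs (KPC-shV, KPC-shZEB1), of which 46 barcodes were in both. By the limits of the study's methods, a barcode needed 500 genes, a total of 1000 to 60000 UMIs and no more than 15% from mitochondrial genes (11713 and 12447 passed), and 315 and 343 with a Scrublet doublet score above 0.2 were then removed. Cells of both libraries were clustered together in scanpy 1.11.5 (3000 variable genes, 30 components, 20 neighbours, Leiden resolution 1 with leidenalg 0.10.2), giving 33 clusters, and T and NK cells again into 16 sub-clusters (2000 genes, 20 components, resolution 1.5). No authors' annotation was used. The 54 genes of the members and lists were kept out of the variable genes. Clusters were named from marker lists and otherwise by their leading genes outside those lists; the minimum marker score of 0.15 and the merging of dendritic types were set after cluster names were seen.

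UMIs were summed by class and library. Intervals are exact Poisson for levels, exact conditional for ratios and Clopper-Pearson for shares (scipy 1.17.1, confidence 95%), and 0 counts are given an upper limit of 3 counts. They cover counting error only, since the groups had 1 library each, and no p-value was computed. On simulated counts the ratio interval was checked for coverage. List genes were called past a ratio of 1.5 with at least 30 UMIs, and median log2 ratios add 1 CPM. Named genes were the 6 members, the 8 lists' genes and the 5 genes with the highest correlation to each member, of which 1 list gene is not reported here; markers, leading genes, partner genes in single cells and the cells singled out by count were added after values were seen. The members, lists and rules were chosen with earlier results of these data known. Coordinates come from GENCODE M21 (GRCm38), which held 32235 of the 32285 gene IDs and all 54 listed genes, and windows before the start from RefSeq, which had none for Il23a and Il17ra. The alternatives, 10 planned and the rest added after the data were seen, varied doublet removal, cell filters, clustering, class assignment, free RNA, depth, single cells and cluster mix.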

Additional observations from a re-analysis of the deposited data

Results flagged for a closer look

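Il23a was at 609 CPM (553 to 669, 432 UMIs in 96 of 262 cells) in the library labelled KPC-shZEB1 in an unnamed cluster led by Pnlip and Cela1, which entered no class. The library labelled KPC-shV had 6 cells there, with 3 UMIs in 1 cell, and the leading genes joined acinar enzymes to granulocyte genes such as Abca13 and Trem3. The value is close to the 618 CPM of granulocyte-like cells in the same library. Il17ra and Il17rc were at 18.6 and 17.6 CPM in the 217 barcodes above 60000 UMIs of the library labelled KPC-shZEB1, which the filter left out, against 14.7 and 13.5 CPM in 289 such barcodes of that labelled KPC-shV. Both pairs lie near the levels of tumour-like cells. In those barcodes of the library labelled KPC-shV, Il17a had 52 UMIs, of which 43 were in 1 barcode. The flags mark signal outside the cells compared, and no difference was tested.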

How the results depend on the processing

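With 1 library a group, no replicate could be left out, and no value below is a test. No paired analysis was possible because each group had 1 library. Across 127 alternatives of 12 ratios and shares, 100 left the value within its counting interval, 20 moved it and 7 turned its direction. A turn was counted only where the reported interval excluded 1. The Il17f ratio in T-like cells, whose interval spans 1, was 0.628 with libraries clustered alone, 0.920 as a mean over cells and 0.479 after thinning. The Il17a ratio in T-like cells stayed below 1 in all that gave a value, from 0.156 (highest 8% of doublet scores removed), 0.159 (Leiden resolution 2), 0.0750 (cells assigned by marker UMIs) and 0.0256 (each library clustered alone) to 0.433 without the 1 cell with the most Il17a UMIs, 0.445 without the 5 such cells and 0.499 over all kept cells. The ratio of Il17a shares, 0.685, became 0.261 with libraries clustered alone. That clustering placed 56 of the 57 type 17 cells of the library labelled KPC-shZEB1 in a cluster named mast or basophil, which removes them from T-like cells. Without doublet removal 33 of 34 and all 57 fell in a cluster named monocyte-macrophage, so T-like cells of the library labelled KPC-shV had no Il17a or Il17f UMIs and gave no value. The Il23r ratio was 0.446 without doublet removal, 0.0668 with libraries clustered alone, 0.606 without 5 cells and 0.618 after thinning, and turned to 1.30 over all kept cells. The Il23a ratio was 1.13 as a mean over granulocyte-like cells and turned to 0.953 without the Siglecf cluster and 0.921 with clusters weighted as in the library labelled KPC-shV. In monocyte-macrophage-like cells it turned to 1.00 with the highest 8% of doublet scores removed and 1.005 with marker assignment, and was 0.740 as a mean over cells. In dendritic-like cells it turned to 2.47 with libraries clustered alone and 1.23 without the 1 cell with the most Il23a UMIs, and was 0.935 without 5 cells and 0.214 after thinning. The Il17ra ratio was 1.265 in granulocyte-like cells without the Siglecf cluster, and 0.872 as a mean over cells and 0.650 after thinning in tumour-like cells, below 1 where the value reported lay above it with an interval that spans 1. The Il17rc ratio in fibroblast-like cells was 1.43 after thinning. Of 21 alternatives of the list counts 17 stayed within 1.5 times. With at least 100 UMIs the T-like lineage list had 0 calls and the fibroblast-like target list 3, and with a ratio of 2 the granulocyte-like signalling list had 0 and the tumour-like target list 2. The causes were not tested beyond the placements given. The cell, cluster, mix and all-cell alternatives were chosen after seeing the data. The 5-cell alternative gave no Il17f value, and means over cells and removal of 5% free RNA gave none for the share.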
